A study of Rattus norvegicus with 18 samples.

Results

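The 6 arrays described here, of 18 in a series on rat kidney cells, were compared to describe the response to acute hypertonicity while the phosphatase calcineurin was inhibited. They are the 3 arrays titled 300_1 to 300_3 and the 3 titled 600_24_CSA_1 to 600_24_CSA_3, chosen by title. All arrays hold RNA of primary cultured collecting duct cells of the rat renal inner medulla. The control group was cultured at 300 mosmol/kg with no further treatment (the 300 culture). The test group was cultured at 300 mosmol/kg and then challenged with 600 mosmol/kg for 24 h together with 5 µM cyclosporin A (the 600 challenge with drug). Beside them stand 3 arrays of the same challenge without the drug. For 1 comparison, 3 arrays of a culture at 600 mosmol/kg and 3 of that culture after 24 h at 900 mosmol/kg with 5 µM cyclosporin A were also used. By the labels, no group received cyclosporin A at 300 mosmol/kg and none was moved without a change of osmolality. In the comparison with the 300 culture, the drug, the osmotic step, the move and the added time therefore cannot be told apart. The drug is separated only by the comparison of the challenges with and without it. Whether the challenge without the drug included its solvent is not stated here. The labels do not give the rat strain, age or sex, or say if the arrays of a group stem from separate animals or cultures. The p-values therefore rest on the spread of these arrays alone, and part of that spread may be technical.

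The inner medulla is the saltiest tissue of the body, and its tubule cells survive by importing or making small organic molecules that balance the salt outside. The transcription factor Nfat5, a relative of the calcineurin-dependent NFAT proteins that lacks their calcineurin-binding domain, switches on many of the genes for this. Cyclosporin A binds cyclophilins inside the cell, and the complex blocks calcineurin, which otherwise removes phosphate from NFAT proteins and lets them enter the nucleus. The drug is used against transplant rejection and is known for its toxicity to the kidney.

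Each array gave values for 28328 features, of which 15295 carry 1 gene symbol. The deposited values are logarithms of unknown base. With base 2, 1 unit stands for a 2-fold change, and with a natural log for a 2.72-fold change. Values ran from 0 to 9.504 and array medians from 3.564 to 3.649. On single arrays the lower quartile was 2.476 to 2.696, and a level below this is called dim here, since they are not shown to stand above background. The median SD between the 3 arrays was 0.108 units in the 300 culture and 0.121 in the 600 challenge with drug. On the first principal component of all arrays, which held 44.9% of the variance, the 300 culture scored 40.5 to 42.2, the 600 challenge 22.5 to 24.0 without and 24.5 to 26.7 with the drug. On the second, with 12.7%, the 300 culture scored 20.6 to 23.5, the 600 challenge with drug -21.3 to -17.0 and the challenge without it -19.7 to -18.7, so the challenges overlapped there. Precision is limited by the number of arrays.

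The cultures held epithelial RNA together with signal for other cell types. In the 300 culture the epithelial genes Epcam (7.97), Krt18 (8.25), Krt8 (8.13) and Cdh1 (7.33) were bright, as was the kidney cadherin gene Cdh16 (6.77). Some transport genes typical of the collecting duct were dim. Aqp2, the vasopressin-regulated water channel, lay at 1.61 and the urea transporter gene Slc14a2 at 1.99. The sodium channel subunit genes Scnn1b and Scnn1g lay at 1.83 and 2.26. Other collecting duct genes, such as Gata3 and Muc1, lay above the dim level in the 300 culture. The vasopressin receptor gene Avpr2 lay at 3.35. Markers of macrophages such as Lyz2 (7.76), of fibroblasts such as Col1a2 (7.72) and of smooth muscle such as Acta2 (8.54) were as bright as the epithelial ones on their own features, although levels of different features are not comparable in amount. Changes in a bulk sample do not show whether a cell type became rarer or its cells held less of an RNA, and these cannot be told apart here.

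In the comparison of the 600 challenge with drug against the 300 culture, limma with Benjamini-Hochberg adjustment called 3982 features at an adjusted p under 0.05, which is 14.1% of all features. Of these, 1759 were higher (6.21%) and 2223 lower (7.85%). Large changes were mostly falls: 438 features were called higher by at least 0.5 units and 1121 lower by as much (1.55% and 3.96%), 70 and 302 at 1 unit (0.247% and 1.07%), and 7 and 24 at 2 units (0.0247% and 0.0847%). Of the 372 features called at 1 unit or more (1.31%), 311 carry 1 symbol (1.1%). The median difference over all features was 0.03. Among the 14499 genes with a symbol, each read by its brightest feature, 19.2% were called, 7.81% higher and 11.4% lower, and the counts of gene lists given here stand against these shares. All adjusted p-values are from this limma test over all features, and ± after a difference is its SE.

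**Figure D1:**
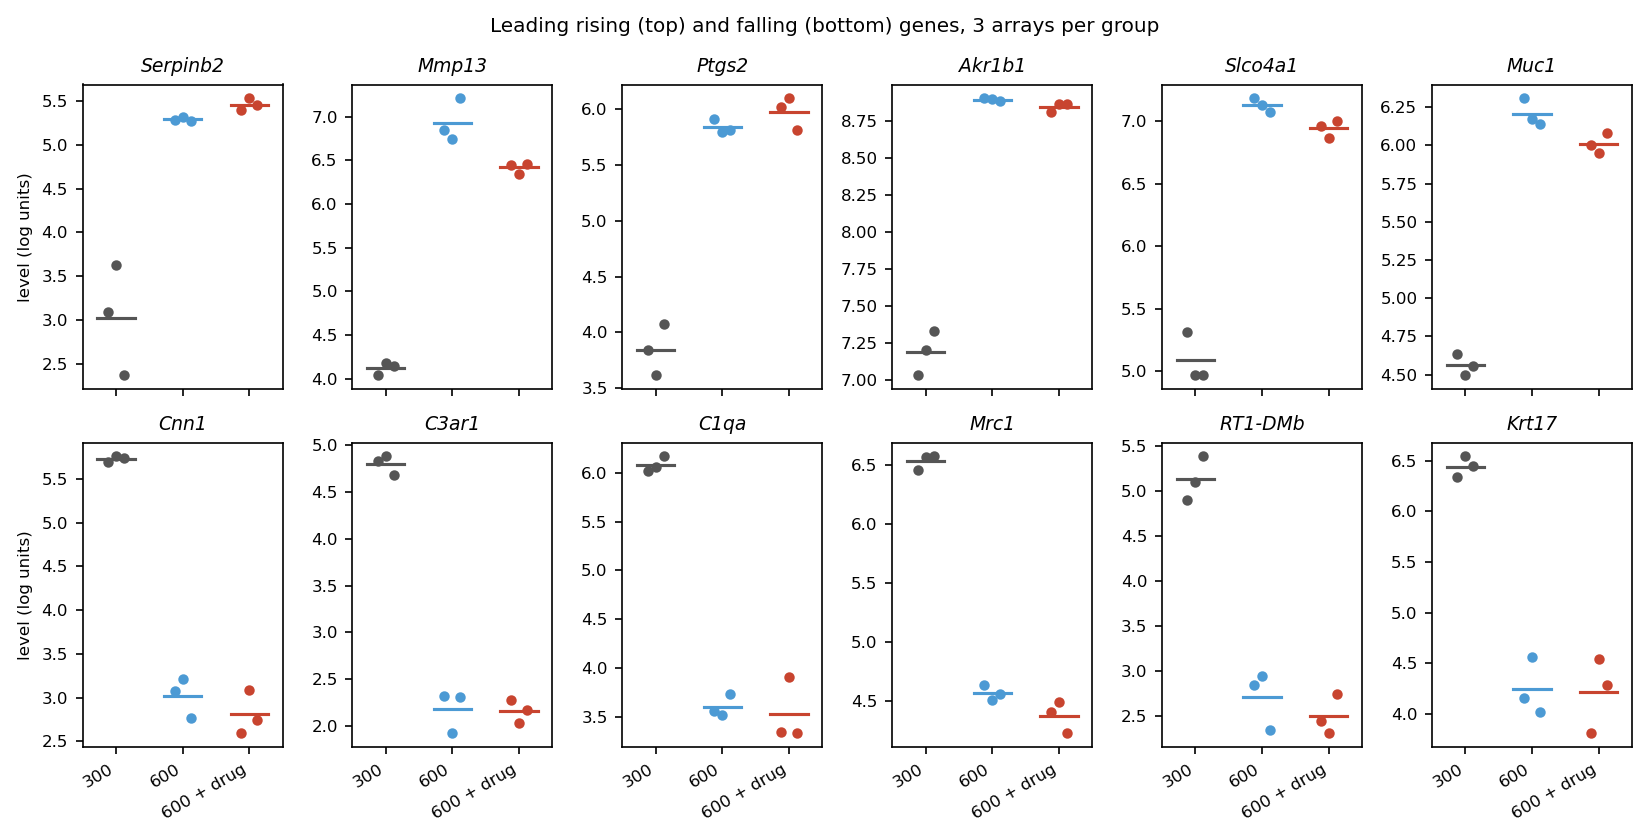
Levels of the leading rising genes (upper row) and falling genes (lower row) on each array, in log units of unknown base (y axis), for the 300 culture, the 600 challenge without drug and the 600 challenge with drug (x axis). Points are single arrays and bars are group means of 3 arrays. In each gene shown, the 3 arrays of the challenge with drug lay entirely above or entirely below the 3 arrays of the 300 culture. Leading genes were picked with this as a condition, which 8674 of all 28328 features (30.6%) met.

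Among features with 1 symbol, the largest rise was that of Serpinb2, followed by Akr1b1 on its dimmer feature, Mmp13, Prss35 and Ptgs2. Serpinb2, an inhibitor of plasminogen activators, had values of 3.09, 3.62 and 2.37 on the 300 arrays and 5.39, 5.53 and 5.45 in the 600 challenge with drug. The groups did not overlap, which was a condition for choosing the leading genes, and the 300 arrays were the more scattered. It rose by 2.43 ± 0.27 units (adjusted p = 2.07e-05), which is 5.40-fold with base 2 and 11.4-fold with a natural log. The collagenase gene Mmp13 went from 4.05, 4.19 and 4.15 to 6.45, 6.35 and 6.46, a rise of 2.29 ± 0.10 (adjusted p = 2.44e-09). Ptgs2, the inducible cyclooxygenase, went from 3.84, 3.62 and 4.07 to 6.02, 6.10 and 5.82, a rise of 2.14 ± 0.11 (adjusted p = 9.87e-09). In both genes the lowest challenged array lay more than 1 unit above the highest control array.

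Slco4a1, an organic anion transporter, rose by 1.86 ± 0.08 from 5.32, 4.97 and 4.97 to 6.96, 6.87 and 7.0 (adjusted p = 1.86e-09). The membrane mucin gene Muc1, a marker of the distal tubule and collecting duct, rose by 1.45 ± 0.06 from 4.64, 4.50 and 4.56 to 6.0, 5.95 and 6.08 (adjusted p = 1.96e-09). In both genes the groups were far apart. Havcr1, the kidney injury molecule shed by damaged tubule cells, rose by 1.47 ± 0.15, the stromelysin gene Mmp3 by 1.52 ± 0.15 and the TNF family gene Tnfsf15 by 1.61 ± 0.11. The protease-activated receptor gene F2rl1 rose by 1.69 ± 0.31 and the GTPase gene Rrad by 1.68 ± 0.21. Prss35, Slc45a3 and Klrk1 started from a dim level, so that the size of their rise is less sure. Prss35, of the serine protease family, went from a mean of 2.08 to 4.26, the solute carrier gene Slc45a3 from 1.61 to 3.61 and Klrk1, which encodes an activating receptor of lymphocytes, from 2.47 to 4.26.

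Of 8 measured organic osmolyte genes, 5 rose and 0 fell, with a median of 0.33 against 0.01 over all genes with a symbol. Akr1b1, the aldose reductase that makes sorbitol from glucose, had 7.04, 7.20 and 7.33 on the 300 arrays and 8.81, 8.86 and 8.86 in the challenge with drug on its brighter feature (rise of 1.66 ± 0.06, adjusted p = 8.25e-10). Its dimmer feature went from 3.43, 3.39 and 2.38 to 5.37, 5.41 and 5.33 (rise of 2.30 ± 0.23). Both features thus rose, the second from a lower and more variable start. Slc5a3, the carrier of myo-inositol, rose by 0.78 ± 0.06 from 4.74, 4.66 and 4.68 to 5.43, 5.57 and 5.41. Nfat5 itself rose by 0.43 ± 0.12 (adjusted p = 0.0262), the taurine transporter gene Slc6a6 by 0.36 ± 0.08 and the neutral amino acid transporter gene Slc38a2 by 0.31 ± 0.05. Sord, whose enzyme turns sorbitol into fructose, had a difference of -0.39 ± 0.13 (adjusted p = 0.0667), and the test was also not passed by Gdpd5, which degrades glycerophosphocholine, or the choline carrier gene Slc44a1. The call of Nfat5 was lost when array 1 or 3 of the 300 culture or array 1 or 2 of the challenge with drug was left out (adjusted p of 0.0651 to 0.102). The direct comparison with the challenge without the drug called 0 of these 8 genes. It called only 0.655% of all genes with a symbol, so that 0 of 8 says little about the drug. Slc5a3 had the largest difference there, -0.20 ± 0.06 (adjusted p = 0.227), with no overlap between arrays (5.69, 5.67 and 5.65 without the drug).

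Of 15 genes of ion transport and volume control, 8 rose and 2 fell, with a median of 0.25. With only the 6 arrays compared in the fit, 5 rose. Subunits of the Na,K-ATPase, the pump that drives sodium out of the cell, included Atp1b1 (rise of 0.33 ± 0.05) and Atp1b3 (0.25 ± 0.05). The pump's regulatory FXYD proteins moved apart. Fxyd2, the gamma subunit, rose by 1.38 ± 0.10 from 4.08, 3.83 and 3.90 to 5.20, 5.39 and 5.36, whereas Fxyd4 fell by 0.96 ± 0.13, from 4.10, 3.77 and 3.93 to 2.83, 3.23 and 2.86 (adjusted p = 0.000135), and Fxyd5 fell by 0.64 ± 0.07. Without the drug Fxyd4 had a difference of -0.32 (adjusted p = 0.136), and the direct test between the challenges gave -0.64 ± 0.13 (adjusted p = 0.0568). Slc12a2, the cotransporter that loads shrunken cells with sodium, potassium and chloride, rose by 0.39 ± 0.04, and the kinases that switch it on, Stk39 and Oxsr1, by 0.52 ± 0.07 and 0.17 ± 0.05. Oxsr1 was not called without array 1 or 3 of the 300 culture or array 1 or 2 of the challenge with drug. Among potassium and chloride channel genes 4 rose and 5 fell of 20, with Kcnj16 (0.57 ± 0.07) and Clcn3 (0.32 ± 0.08) higher and Kcne3 (-1.18 ± 0.20) and Ano1 (-0.64 ± 0.16) lower. Ano1 lost its call without array 3 of the 300 culture (adjusted p = 0.0501) or array 1 of the challenge with drug (adjusted p = 0.0704). The 5 falls of this list became 1 without 300 array 3, 2 without 300 array 1 or drug array 1 or 2, 3 without drug array 3 and 2 with only the 6 arrays compared.

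Of 17 chaperone genes, 3 rose and 2 fell, or 1 with only the 6 arrays compared, with a median of 0.01. The risers were Hspa4l (4.66, 4.69 and 4.64 to 5.88, 5.96 and 5.86, a rise of 1.24 ± 0.05) and Hsph1 (0.68 ± 0.04), both nucleotide exchange factors of the Hsp110 family, and the mitochondrial chaperonin gene Hspd1 (0.21 ± 0.06). Hspd1 lost its call without array 1 or 3 of either group (adjusted p of 0.0944 to 0.132). The small heat shock gene Hspb1 fell by 0.53 ± 0.06. The chaperone genes Hspa8 and Hsp90aa1 had differences of -0.02 ± 0.04 and -0.01 ± 0.04.

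Of 14 prostaglandin genes, 4 rose, or 2 with only the 6 arrays compared, and 3 fell, with a median of 0.15. Beside Ptgs2, the risers were Ptges2 (0.93 ± 0.19), the exporter gene Abcc4 (4.77, 4.77 and 4.86 to 5.71, 5.73 and 5.70, a rise of 0.91 ± 0.05) and Hpgd (0.33 ± 0.10), whose enzyme inactivates prostaglandins. The importer gene Slco2a1 fell by 0.99 ± 0.10, the prostaglandin D synthase gene Ptgds by 1.21 ± 0.11 and the inducible prostaglandin E synthase gene Ptges by 0.79 ± 0.13, from 4.66, 4.49 and 4.52 to 3.70, 3.76 and 3.84. The inducible cyclooxygenase and the inducible synthase downstream of it thus went in opposite directions. Of the metalloproteinases and their inhibitors, 5 of 15 rose and 6 fell. Mmp10 (0.57 ± 0.13), Mmp12 (0.66 ± 0.10) and the inhibitor gene Timp3 (0.51 ± 0.07) rose with Mmp13 and Mmp3, while Mmp7, matrilysin, fell by 2.07 ± 0.11 from 5.10 to 3.03, and Timp2 (-0.67 ± 0.10), Mmp14 (-0.49 ± 0.06) and Timp1 (-0.42 ± 0.04) fell with it. In the list of EGF ligands and receptors, Areg (0.91 ± 0.19) and Ereg (0.80 ± 0.13) rose together with the receptor gene Egfr (0.39 ± 0.09) and Erbb2 (0.33 ± 0.06), while Hbegf fell by 0.22 ± 0.05 and Btc by 0.21 ± 0.06. Neither of the 2 falls was called with only the 6 arrays compared, and 1 of them with arrays centred on their medians. The calls of Hpgd (array 2 or 3 of either group), Egfr (300 array 1 or 3, drug array 2) and Btc (any 300 array, drug array 2 or 3) were lost when the array in brackets was left out.

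Genes of macrophages and other leukocytes made the broadest fall: 24 of 26 fell and 0 rose, with a median of -1.55. The mean level of these genes lay between 5.47 and 5.57 on the arrays of the 300 culture, between 3.95 and 4.15 in the challenge with drug and between 4.10 and 4.16 in the challenge without it. C3ar1, a complement receptor, had 4.83, 4.88 and 4.68 on the 300 arrays and 2.28, 2.04 and 2.17 in the challenge with drug, which is a fall of 2.63 ± 0.15 (adjusted p = 1.98e-08) to a dim level. C1qa, a chain of the first complement component, fell by 2.55 ± 0.15 (6.02, 6.05 and 6.17 to 3.35, 3.91 and 3.34) and the mannose receptor gene Mrc1 by 2.15 ± 0.08 (6.45, 6.56 and 6.57 to 4.41, 4.49 and 4.23). In each of these genes the lowest control array lay above the highest challenged one, which was a condition for choosing the leading falls. The leading falls also held the chemokine gene Ccl6 (-2.34 ± 0.15), C1qc (-2.27 ± 0.13), the inhibitory Fc receptor gene Fcgr2b (-2.24 ± 0.10), the actin regulator gene Coro1a (-2.15 ± 0.13), the GTPase gene Rac2 (-2.37 ± 0.24) and the receptor genes Csf2rb (-2.38 ± 0.16), Slamf9 (-2.36 ± 0.23), Cmklr1 (-2.12 ± 0.21) and C5ar1 (-2.10 ± 0.06). Ptprc, which encodes the CD45 antigen of all leukocytes, had a difference of -0.22 ± 0.10 (adjusted p = 0.176), and the T cell gene Cd3e was dim in both groups.

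RNA of genes for antigen presentation by MHC class II fell along with these genes, in 8 of 9 cases (median -1.25). RT1-DMb, which helps load peptides, fell by 2.64 ± 0.17 (4.90, 5.11 and 5.39 to 2.44, 2.31 and 2.74), RT1-Da by 1.54 ± 0.13, RT1-Ba by 1.38 ± 0.21 and the invariant chain gene Cd74 by 0.79 ± 0.08. The exception was the class II transactivator gene Ciita (-0.30 ± 0.16, adjusted p = 0.282). Interferon response genes fell in 8 of 20 cases and rose in 1 (median -0.20), with Usp18 at -0.65 ± 0.10 and Ifit2 at -0.63 ± 0.06, while the chemokine gene Cxcl10 rose by 0.56 ± 0.11. The 8 interferon falls became 5 without drug array 1 or 3, and 5 with only the 6 arrays compared.

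Contractile, stromal and endothelial markers were lower as well. Of 14 smooth muscle genes, 10 fell and 0 rose (median -0.90). Cnn1, calponin, had the largest fall of any gene with a symbol: 5.70, 5.76 and 5.74 on the 300 arrays and 2.60, 3.09 and 2.74 with the challenge and drug (-2.92 ± 0.15, adjusted p = 1.23e-08), which is 7.58-fold with base 2 and 18.6-fold with a natural log. Actg2 (-1.77 ± 0.12), Myh11 (-1.76 ± 0.12), Tpm2 (-1.08 ± 0.09) and Acta2 (-0.80 ± 0.04) fell with it. Myocd, whose product drives smooth muscle genes, had a difference of 0.05 ± 0.15, and the tropomyosin gene Tpm1 one of 0.03 ± 0.06. Of 17 fibroblast genes, 11 fell and 0 rose (median -0.60), among them Postn (-1.23 ± 0.06), Fbln2 (-1.19 ± 0.14) and the collagen gene Col3a1 (-0.82 ± 0.07). Endothelial genes fell in 9 of 13 cases (median -0.50), with Tie1 at -1.49 ± 0.12 and Egfl7 at -1.07 ± 0.07, and Emcn rose by 0.27 ± 0.07, a call that was lost without array 1 of the challenge with drug (adjusted p = 0.0573). The mean level of the smooth muscle list went from 5.74 to 5.80 on the control arrays down to 4.72 to 4.91, that of the fibroblast list from 5.36 to 5.43 down to 4.84 to 4.94, and that of the endothelial list from 4.85 to 4.88 down to 4.42 to 4.45. These marker sets and the leukocyte set moved in the same direction on the same arrays as the falls named here, and their part in those falls was not tested.

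**Figure D2:**
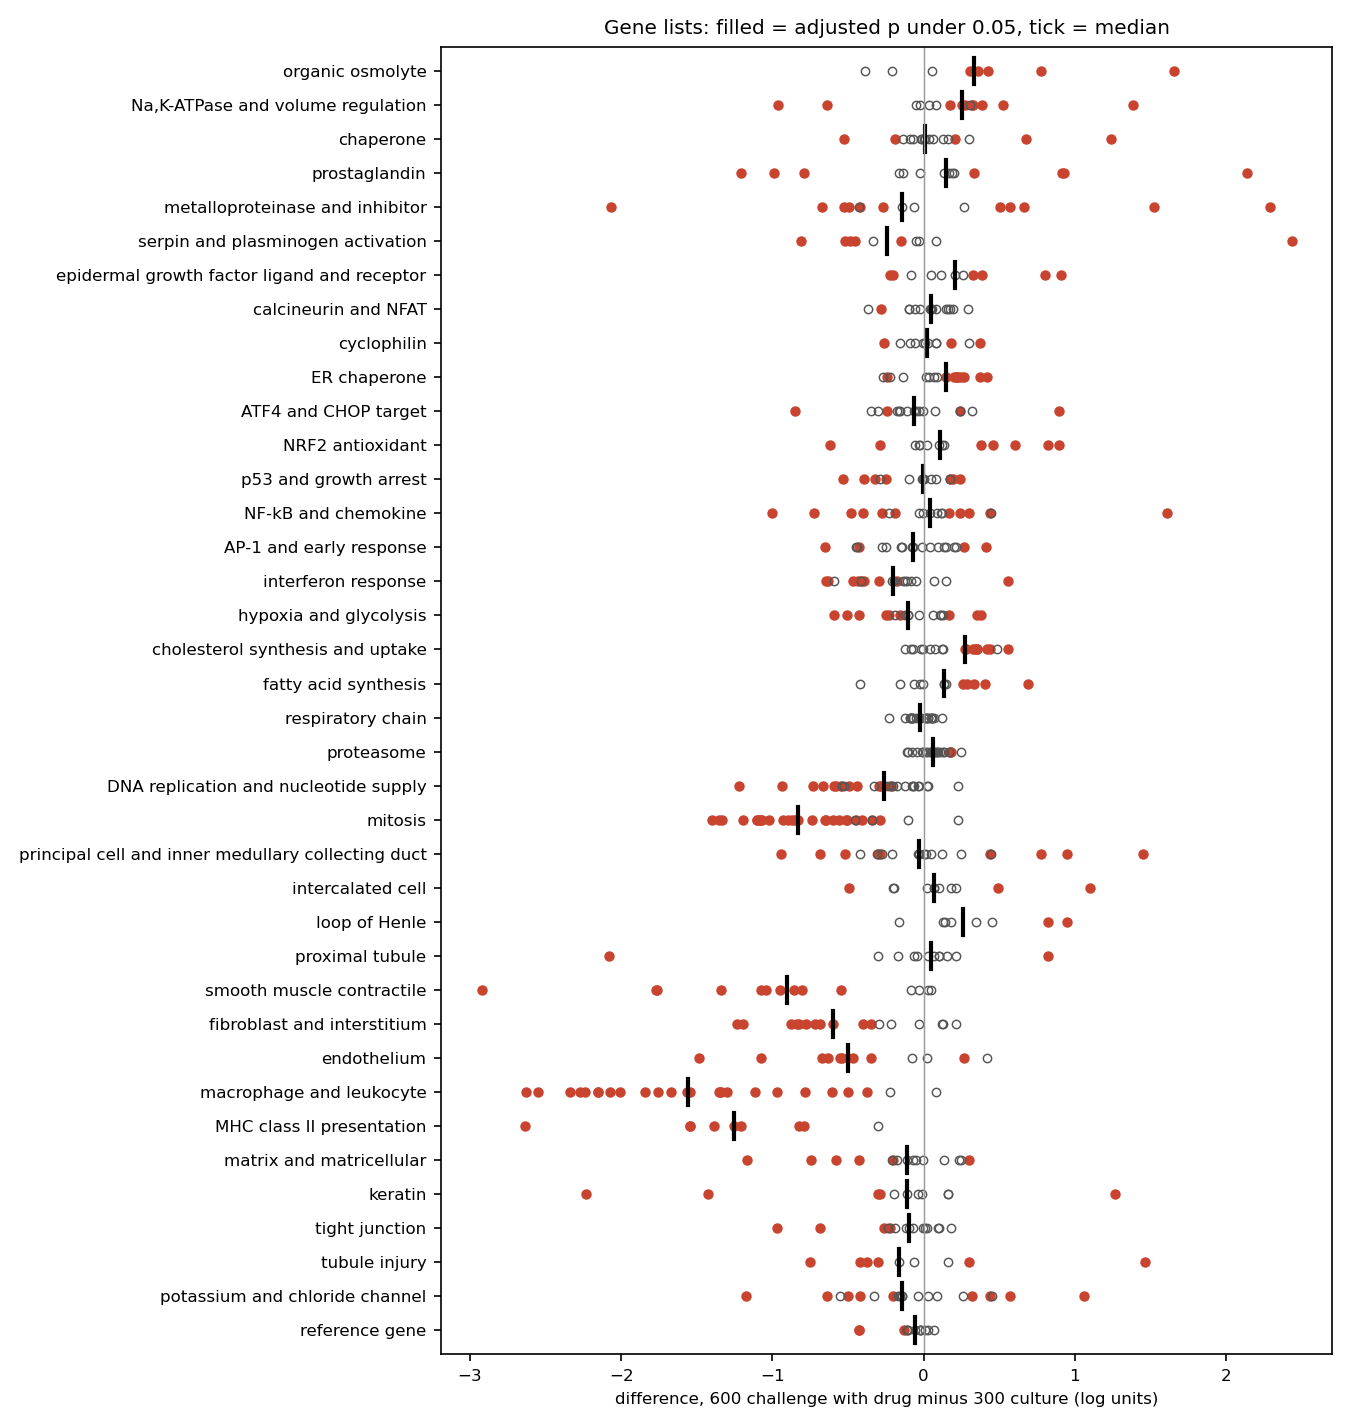
Difference between the 600 challenge with drug and the 300 culture in log units (x axis) for every measured member of each gene list (rows). Filled points passed an adjusted p under 0.05 and open points did not, and the vertical tick is the list median. The macrophage and leukocyte, MHC class II, mitosis and smooth muscle lists have medians left of 0, at -1.55, -1.25, -0.83 and -0.90, and the cholesterol and organic osmolyte lists have medians right of 0, at 0.28 and 0.33.

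Mitotic genes fell in 27 of 31 cases and rose in 0 (median -0.83), and genes of replication and nucleotide supply fell in 13 of 29 and rose in 0 (median -0.26), or in 8 of 29 without array 1 of the challenge with drug. Ccnb1, a cyclin that drives entry into mitosis, had 5.34, 5.32 and 5.31 on the 300 arrays and 3.91, 3.96 and 3.91 in the challenge with drug (-1.40 ± 0.12, adjusted p = 2.25e-06). The related cyclin gene Ccnb2 fell by 1.36 ± 0.10, the polo kinase gene Plk1 by 1.20 ± 0.20 and Cdc20, which starts the exit from mitosis, by 1.10 ± 0.16. The ribonucleotide reductase gene Rrm2 fell by 1.22 ± 0.16 and the helicase gene Mcm5 by 0.94 ± 0.15. The replication clamp gene Pcna (-0.03 ± 0.08) and the helicase gene Mcm7 (0.02 ± 0.08) missed the threshold, as did the cell cycle inhibitor gene Cdkn1a (0.00 ± 0.06).

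Mitotic genes share promoter elements, and the stretches before 3 of the genes that fell are shown because they carry 1 of these, the cell cycle homology region. They are from RefSeq (GRCr8), read 5′ to 3′ on the gene's strand, with the letters TTTGAA or their complement TTCAAA in capitals.
Ccnb2 (chr8:79981659-79981758, minus strand): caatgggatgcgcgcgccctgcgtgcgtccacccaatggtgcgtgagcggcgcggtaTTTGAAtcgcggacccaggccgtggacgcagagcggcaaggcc
Cdc20 (chr5:137255801-137255900, minus strand): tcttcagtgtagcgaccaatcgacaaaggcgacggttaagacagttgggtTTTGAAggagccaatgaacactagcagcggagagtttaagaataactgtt
Top2a (chr10:84473094-84473193, minus strand): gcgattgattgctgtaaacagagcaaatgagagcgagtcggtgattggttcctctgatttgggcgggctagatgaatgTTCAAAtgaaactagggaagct
In the 250 bases before the gene start, TTTGAA on either strand was found in 12 of the 27 mitotic genes that are measured and have an entry, in 1 of 25 replication genes and in 16.0% of all 27457 promoters in the table. CCAAT, the box bound by NF-Y, was found in 20 of the 27 on either strand, against 34.3% of all promoters. Such a match describes the letters of this window and is not a measured binding site.

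In the endoplasmic reticulum (ER), secreted proteins are folded. Of 17 ER chaperone and quality control genes, 9 rose and 1 fell against the 300 culture (median 0.15). In the challenge without the drug, whose comparison uses the same 300 arrays and called 14.4% of all features (6.36% higher, 8.07% lower; 19.4% of genes with a symbol, 7.92% higher and 11.5% lower), 0 of the 17 rose and 1 fell (median -0.07). The direct comparison of the challenges took its estimate of spread from all 18 arrays. When only its own 6 arrays were fitted, limma called 0 features (2170 at an unadjusted p under 0.05, against 2406 with all arrays), with a lowest adjusted p of 0.0637. With all arrays it called 116 features, 0.409% of all, and 0.655% of genes with a symbol. It called 4 of the 17 genes, each higher with the drug, and all 17 differences were above 0. Over all 14499 genes with a symbol, 7414 differences were above 0. The genes of a list are read on the same arrays and are not independent. Dnajb9, a cochaperone induced by unfolded proteins, had 5.66, 5.67 and 5.61 on the 300 arrays, 5.71, 5.67 and 5.61 in the challenge without the drug and 6.05, 6.17 and 5.99 with it. The drug arrays stood apart from both other groups, which overlapped, and the direct difference was 0.41 ± 0.07 (adjusted p = 0.0182). Hyou1 (0.36 ± 0.06, adjusted p = 0.0158), Dnajc3 (0.32 ± 0.05, adjusted p = 0.00600) and the master chaperone gene Hspa5 (0.21 ± 0.04, adjusted p = 0.0333) were higher with the drug too. Hspa5 had 8.07, 8.02 and 8.06 without the drug and 8.28, 8.24 and 8.25 with it. Hsp90b1 (0.24 ± 0.07, adjusted p = 0.175) and Pdia4 (0.25 ± 0.06, adjusted p = 0.0733) rose against the 300 culture and did not pass the direct test. The 9 rises against the 300 culture became 5 without 300 array 1, 4 without 300 array 2, 5 without drug array 1 and 2 with only the 6 arrays compared. Hsp90b1 lost its call without each of the 6 arrays (adjusted p of 0.0565 to 0.146), Hspa5 without 300 array 1 or 2 or drug array 1, and Pdia4 without 300 array 2 or 3 or drug array 3. The fall of Creld2 was lost without 300 array 1 or 2 or drug array 1, with arrays centred on their medians and with only the 6 arrays compared. The 4 direct calls became 1 or 2 without any array but drug array 3, and Dnajc3 was kept without each array. The direct call of Hspa5 was lost when any one of the 6 arrays was left out, drug array 3 included (adjusted p of 0.0767 to 0.145). The changes are small, and Herpud1 and Sdf2l1, classical targets of the same response, had direct differences of 0.01 ± 0.13 and 0.15 ± 0.14.

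The stretches before 3 of the risers are shown because they carry the ER stress element, which is CCAAT followed after 9 bases of any kind by CCACG, with its fixed letters in capitals (RefSeq, GRCr8, on the gene's strand).
Hspa5 (chr3:38452916-38453015, plus strand): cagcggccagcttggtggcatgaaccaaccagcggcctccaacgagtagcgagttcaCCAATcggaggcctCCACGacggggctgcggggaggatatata
Hsp90b1 (chr7:23012316-23012415, minus strand): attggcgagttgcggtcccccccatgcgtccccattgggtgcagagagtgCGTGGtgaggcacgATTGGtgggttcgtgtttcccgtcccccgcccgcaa
Dnajc3 (chr15:102432484-102432583, plus strand): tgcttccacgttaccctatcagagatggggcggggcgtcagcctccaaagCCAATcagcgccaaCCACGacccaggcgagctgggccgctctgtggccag
In the 250 bases before the start, and on either strand, the element was found in 6 of 14 ER genes with an entry and in 0.0765% of all promoters (21 of 27457). It overlaps the CCAAT box by construction, and CCAAT alone was found in all 14. It was present in 3 of the 7 such genes that rose and in 3 of the 7 that did not, which were Calr, Canx and Creld2, the gene that fell (-0.24).

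Of 19 genes of cholesterol synthesis and its control, 9 rose and 0 fell with the drug against the 300 culture (median 0.28), whereas 3 rose and 6 fell without it (median -0.06). The direct comparison called 7 of the 19 higher with the drug and 0 lower. Of the differences, 18 of 19 were above 0, against 7414 of 14499 over all genes with a symbol. Cyp51, the sterol demethylase, had 6.8, 6.88 and 6.78 on the 300 arrays, 6.77, 6.76 and 6.74 in the challenge without the drug and 7.15, 7.14 and 7.15 with it. Its direct difference was 0.39 ± 0.05 (adjusted p = 0.00181). Fdft1, which makes squalene (0.41 ± 0.06), Insig1, which holds sterol sensing in the ER (0.37 ± 0.06), Sqle (0.33 ± 0.06), Sc5d (0.32 ± 0.05), Fdps (0.30 ± 0.05) and Msmo1 (0.26 ± 0.05) passed too. The direct calls of Fdps (adjusted p of 0.0679 to 0.0946) and Msmo1 (0.0545 to 0.119) were lost when any one of the 6 arrays was left out. The 7 direct calls became 3 without challenge array 2, 4 without challenge array 3, 2 without drug array 1 and 3 without drug array 3. Cyp51 and Fdft1 were called without each array. The genes differed in where they stood against the 300 culture. Cyp51, Sc5d, Insig1 and Fdps rose above the 300 culture with the drug, while Msmo1 fell in the challenge without the drug (-0.26) and had a difference of 0.00 ± 0.05 from the 300 culture with it.

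Of 13 genes of fatty acid synthesis, 5 rose and 0 fell with the drug, and 4 were higher in the direct comparison. The 5 rises became 3 without array 1 of the 300 culture or array 1 or 2 of the challenge with drug, and 3 with only the 6 arrays compared. Fads2, a desaturase of polyunsaturated fatty acids, had 5.93, 5.91 and 5.86 on the 300 arrays, 5.14, 5.20 and 5.09 in the challenge without the drug and 5.76, 5.71 and 5.76 with it. Without the drug it fell by 0.76. In the other challenge its difference from the 300 culture was -0.16 ± 0.06 (adjusted p = 0.117). The direct difference was 0.60 ± 0.06 (adjusted p = 0.000625). The stearoyl-CoA desaturase genes Scd (0.67 ± 0.12) and Scd2 (0.34 ± 0.04) and the acyl-CoA synthetase gene Acsl3 (0.36 ± 0.05) were higher with the drug as well, and of these direct calls only that of Scd was lost without 1 array (challenge array 1 or 3, drug array 1 or 2). Fasn, the fatty acid synthase, rose against the 300 culture both with the drug (0.69 ± 0.07) and without it (0.37), and the direct difference of 0.32 ± 0.07 did not pass (adjusted p = 0.0611).

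**Figure D3:**
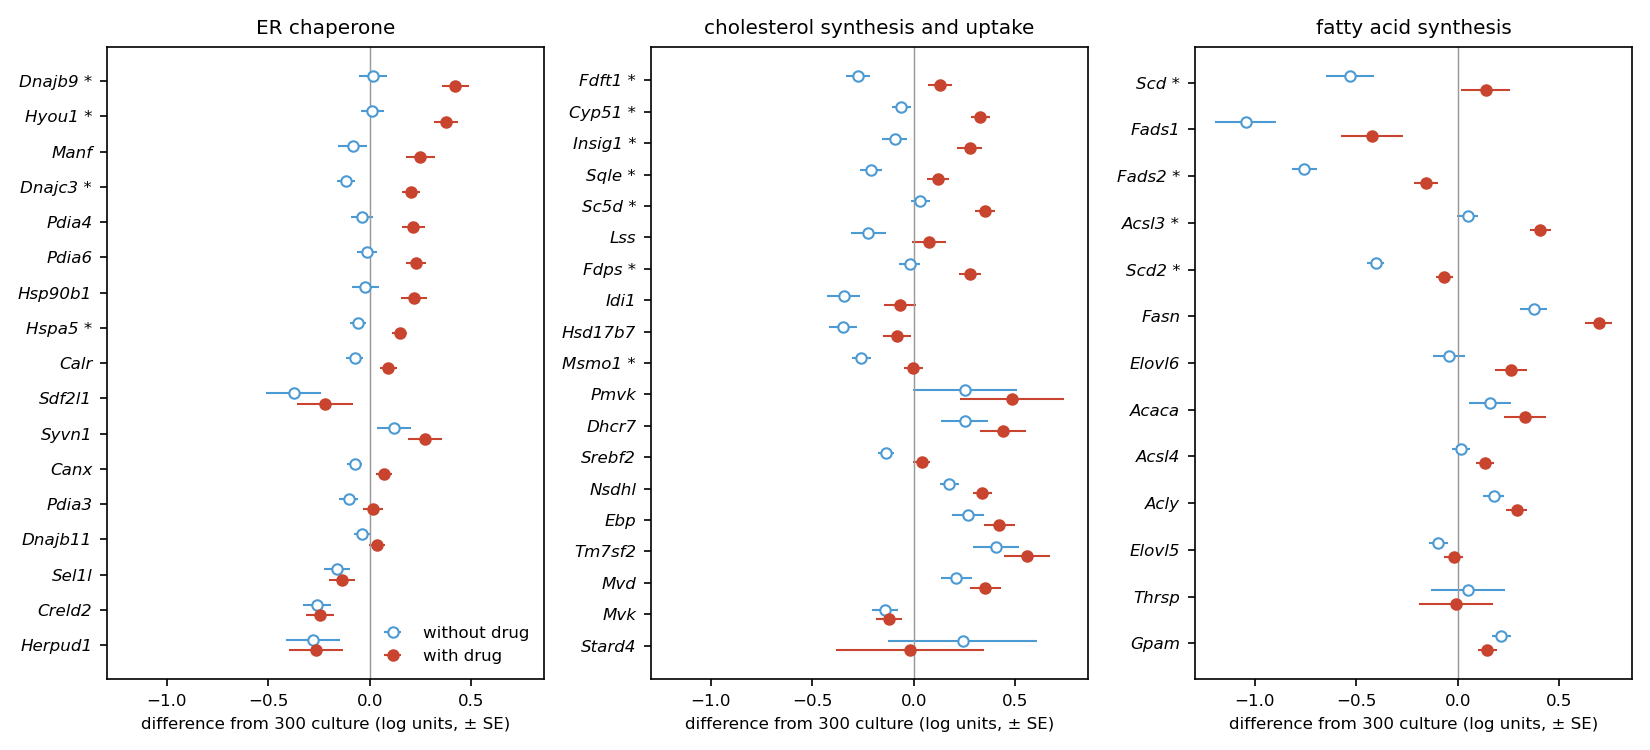
Differences from the 300 culture in log units (x axis, ± SE) of ER chaperone, cholesterol and fatty acid synthesis genes (rows) after the 600 challenge without drug (open circles) and with drug (filled circles), both against the same 3 control arrays. Stars mark genes whose direct difference between the challenges passed an adjusted p under 0.05. Filled circles lie to the right of the open ones in all 17 ER chaperone genes and in 18 of 19 cholesterol genes. Over all genes with a symbol, 7414 of 14499 were higher with the drug than without it, whether called or not.

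Calcineurin is the drug's target. Of 15 genes of calcineurin, NFAT and their regulators, 0 rose (1 without 300 array 1 or drug array 1) and 1 fell against the 300 culture, a share below the background, and the direct comparison called 0. The gene that fell was Fkbp1a (-0.28 ± 0.06, adjusted p = 0.00565), which encodes the binding protein of the related drug FK506. Rcan1, whose induction by calcineurin and NFAT is widely used as a readout of this pathway, had 4.90, 4.81 and 5.01 on the 300 arrays, 5.23, 5.01 and 5.15 in the challenge without the drug and 4.91, 5.10 and 5.22 with it. The groups overlapped, and the direct difference was -0.05 ± 0.08 (adjusted p = 0.929). The catalytic subunit gene Ppp3ca differed by -0.10 ± 0.04 from the 300 culture (adjusted p = 0.185). Of the 12 cyclophilin genes, Ppid (0.38 ± 0.06) and Ranbp2 (0.18 ± 0.05) rose and Ppic (-0.27 ± 0.06) fell, and Ppia, the main cellular binding partner of cyclosporin A, differed by -0.05 ± 0.04 (adjusted p = 0.465). Ranbp2 lost its call without 300 array 1 or drug array 2, and 2 cyclophilin genes fell without 300 array 2. With only the 6 arrays compared, 1 rose. The direct comparison called 0 cyclophilin genes. As it called only 0.655% of genes with a symbol, a count of 0 in either list says little.

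In the NRF2 antioxidant list 5 of 14 genes rose and 2 fell, or 1 without 300 array 1 or drug array 1 or 3 and with only the 6 arrays compared: Nqo1 went from 5.04, 5.05 and 5.15 to 5.91, 5.94 and 5.85 (0.82 ± 0.06), the cystine carrier gene Slc7a11 rose by 0.90 ± 0.12, Me1 by 0.60 ± 0.05, Gclm by 0.46 ± 0.05 and Hmox1 by 0.38 ± 0.08, and Gsta1 fell by 0.62 ± 0.11. Of 17 targets of ATF4 and CHOP, 2 rose and 2 fell with the drug (median -0.06), against 2 and 9 without it (median -0.41). The direct comparison, which called 0.655% of genes with a symbol, called 0 of them, or 1 without challenge array 1 or 2. The 2 rises became 1 without 300 array 1 or 3 or drug array 2, and the 2 falls became 1 without 300 array 2 or 3, drug array 1 or 2 or with quantile normalization. With only the 6 arrays compared, 1 rose and 1 fell. In the list of NF-kB targets and chemokines 5 of 19 rose and 6 fell. Ccl20 (0.44 ± 0.08), Cxcl1 (0.30 ± 0.07) and Ccl2 (0.17 ± 0.04, not called without array 1 or 3 of either group) were higher, and Il1b (-1.0 ± 0.11), Il6 (-0.73 ± 0.07) and Lif (-0.48 ± 0.06) were lower. Respiratory chain genes were called in 0 of 25 cases and proteasome genes in 2 of 24, both below the background share. Without drug array 1, 1 respiratory chain gene fell. The 2 proteasome calls were rises and became 1 without 300 array 2 or drug array 1 or 3, 0 with only the 6 arrays compared and 6 with a trend and robust prior. Of the remaining lists, 3 of 15 p53 targets rose and 4 fell, as did 2 and 2 of 19 AP-1 and early response genes, 3 and 6 of 18 genes of hypoxia and glycolysis, 1 and 5 of 10 serpin and plasminogen genes, 2 and 4 of 9 tubule injury markers, 0 and 4 of 15 tight junction genes and 0 and 3 of 13 reference genes. The 3 rises of p53 targets became 1 without any single one of the 6 arrays. The 5 falls of serpin and plasminogen genes became 3 without 300 array 3 or drug array 1, and 1 tight junction gene rose without drug array 1. With only the 6 arrays compared, 1 p53 target rose and 2 fell, 1 gene of hypoxia and glycolysis rose and 3 fell, 3 serpin and plasminogen genes fell and 2 tight junction genes fell. Among markers of other tubule segments there were 2 rises and 1 fall among 11 intercalated cell genes, 2 and 0 among 8 of the loop of Henle and 1 and 1 among 12 of the proximal tubule.

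Of 22 genes of the collecting duct, 4 rose and 5 fell (median -0.03). Muc1, Slc14a2 (0.95 ± 0.11, from 1.99 to 2.93), Cdh16 (0.78 ± 0.04) and the potassium channel gene Kcnj1 (0.44 ± 0.10) rose, and Aqp4 (-0.94 ± 0.15), Gata3 (-0.69 ± 0.05), Cdh1 (-0.52 ± 0.05), Krt8 (-0.30 ± 0.05) and Krt18 (-0.29 ± 0.05) fell. Gata3, a transcription factor of the ureteric bud lineage, had 6.29, 6.28 and 6.22 on the 300 arrays, 6.05, 6.10 and 5.98 in the challenge without the drug and 5.52, 5.66 and 5.55 with it. Each group was separate from the others, and the direct difference was -0.47 ± 0.05 (adjusted p = 0.000625). The keratin gene Krt19 was lower with the drug as well (-0.28 ± 0.05, adjusted p = 0.0182) and lay at the level of the 300 culture (-0.04 ± 0.05). The direct call of Krt19 was lost without challenge array 2 or drug array 1 or 3, and the rise of Kcnj1 without drug array 3 (adjusted p = 0.0511). Aqp2 stayed dim with the drug (1.88, 1.68 and 2.01). Among keratins of stratified epithelia, Krt17 fell by 2.23 ± 0.26 and Krt14 by 1.43 ± 0.09. Another keratin gene, Krt23, rose by 1.26 ± 0.08 from a dim level.

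Across all features, 65 were higher with the drug than without it (0.229%) and 51 lower (0.180%). Of the 34 direct calls named in the text, 15 were kept without each of the 6 arrays of these groups in turn. These 15 include Mmp9, Ptgir, Mgp, Slc7a3, Pdgfrb, Cxcl11, Rasl10a and Dpep2. Mmp9, gelatinase B, rose most of all features that carry a symbol, with 6.16, 6.12 and 5.98 on the 300 arrays, 5.56, 5.68 and 5.47 without the drug and 6.23, 6.43 and 6.4 with it (direct difference 0.78 ± 0.11, adjusted p = 0.00538). It fell in the challenge without the drug (-0.52) and had a difference of 0.27 ± 0.11 from the 300 culture with it (adjusted p = 0.135). The prostacyclin receptor gene Ptgir (0.72 ± 0.09), the potassium channel gene Kcnj8 (0.73 ± 0.13), the matrix inhibitor of calcification Mgp (0.60 ± 0.08) and Nipal4 (0.60 ± 0.11) fell in the challenge without the drug and stood closer to the 300 culture with the drug. The amino acid carrier gene Slc7a3 (0.63 ± 0.08) and Ficd, which modifies the chaperone made by Hspa5 (0.71 ± 0.14), lay above both other groups with the drug. Pdgfrb, a receptor of pericytes and fibroblasts, was higher with the drug by 0.59 ± 0.06 (adjusted p = 0.000625). Kcnj8 lost its direct call without challenge array 1 or any drug array, Nipal4 without any of the 6 arrays and Ficd without any but drug array 3. The call of Ficd against the 300 culture was lost without 300 array 2 or 3 or drug array 1 or 2 (adjusted p of 0.0657 to 0.111). Mean levels of marker lists also differed between the challenges. On the arrays without and with the drug, the fibroblast list lay at 4.74 to 4.78 and 4.84 to 4.94, the endothelial list at 4.52 to 4.60 and 4.42 to 4.45, the MHC class II list at 4.19 to 4.29 and 4.04 to 4.05, and the collecting duct list at 4.49 to 4.53 and 4.30 to 4.40. The ranges of the macrophage and leukocyte list (4.10 to 4.16 and 3.95 to 4.15) and of the smooth muscle list (4.79 to 4.87 and 4.72 to 4.91) overlapped. The part of these lists in the differences between the challenges, those of the ER and lipid genes included, was not tested.

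Genes lower with the drug included Noxo1, an organiser of NADPH oxidase, with 4.12, 4.03 and 4.26 on the 300 arrays, 4.31, 3.99 and 4.03 without the drug and 3.03, 3.38 and 2.92 with it (direct difference -1.0 ± 0.16, adjusted p = 0.0123). The groups without the drug overlapped and the drug group lay below both. The chemokine gene Cxcl11 (-0.66 ± 0.08), Anxa8 (-0.70 ± 0.12) and Bpifc (-0.64 ± 0.10) fell in the challenge without the drug and lay lower still with the drug. Rasl10a had 3.90, 3.59 and 4.01 on the 300 arrays, 4.95, 5.00 and 5.08 without the drug and 4.10, 4.16 and 4.25 with it. The drug arrays thus stood closer to the control but still above it (direct difference -0.84 ± 0.08, adjusted p = 0.000625). Rasl10a was also called against the 300 culture, a call lost without drug array 3 (adjusted p = 0.0587). Ly6al (-0.79 ± 0.15) showed the same order. Its call against the 300 culture was lost without 300 array 2 or 3 or drug array 3 (adjusted p of 0.0744 to 0.0992). Dpep2 (-0.92 ± 0.12) fell below the 300 culture with the drug, whereas Psen2 (-0.66 ± 0.12) did not pass that test (-0.36, adjusted p = 0.0693). Of the 15 leading rises and 15 leading falls against the 300 culture, only Mmp13 passed the direct test: its values were 6.84, 6.74 and 7.21 without the drug and lower with it by 0.51 ± 0.10 (adjusted p = 0.0413). That call was lost without challenge array 1 or 3 or any drug array. Ly6al and Psen2 lost theirs without any of the 6 arrays, Noxo1 without challenge array 1 or drug array 1 or 3, Anxa8 without challenge array 2 or 3 or drug array 1, and Bpifc without challenge array 1 or 2. The fall of Dpep2 against the 300 culture was lost without array 2 or 3 of either group.

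The same drug was present in the step from the 600 culture to 900 mosmol/kg, which shares no array with the comparison described here. That step called 5040 features (17.8%). Of the 3982 features called in the step to 600, 2036 were also called there, which is 51.1% of the first set and 40.4% of the second. Of these, 670 were higher in both steps, 1176 lower in both and 190 opposite. Across the 28328 features the differences of the steps correlated with r = 0.431, a description over features that share arrays within each step and are not independent. A test of the difference of the steps called 2179 features (7.69%), 1052 with a higher (3.71%) and 1127 with a lower value (3.98%) in the step to 600. With each array centred on its median, 731 were higher and 1198 lower, so that the share of higher calls went from 48.3% to 37.9%.

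Il1b, which encodes an inflammatory cytokine, fell by 1.0 in the step to 600 and rose by 1.07 in the step to 900 (difference -2.07 ± 0.16, adjusted p = 1.93e-06). The chemokine gene Ccl3 fell by 0.61 and rose by 1.42 (-2.02 ± 0.11), Ptges fell by 0.79 and rose by 1.54 (-2.33 ± 0.19), and the ubiquitin ligase gene Rnf186 fell by 1.72 and rose by 0.91 (-2.63 ± 0.23). Gpr146 had a difference of -0.37 in the step to 600 at a dim level and rose by 1.83 in the step to 900 (-2.20 ± 0.30). Havcr1 went the other way, rising by 1.47 in the step to 600 and falling by 0.63 in the step to 900 (2.09 ± 0.21, adjusted p = 2.64e-05). Mmp3 (1.80 ± 0.21), F2rl1 (1.95 ± 0.44) and Cyp1a1 (1.68 ± 0.23) rose in the step to 600 and did not pass the test in the other. The macrophage gene C3ar1 fell by 2.63 in the step to 600 and by 0.59 in the other (difference -2.04 ± 0.21). Ccl6 (-2.13 ± 0.22) and the kinase gene Fgr (-2.03 ± 0.32) fell in the step to 600 and did not pass the test in the other. The carbonic anhydrase gene Car3 fell by 0.64 in the step to 600 and by 2.37 in the step to 900 (1.73 ± 0.11). Sertad4 (1.84 ± 0.12), Wnt5b (1.64 ± 0.17) and the defensin gene Defb1 (1.73 ± 0.18) fell in the step to 900 and did not pass the test in the step to 600.

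Of the list of NF-kB targets and chemokines, 15 of 19 genes passed the test of the difference against 10.6% of genes with a symbol, as did 14 of 20 interferon response genes, 11 of 17 targets of ATF4 and CHOP and 17 of 26 macrophage and leukocyte genes. In other lists, 4 of 9 tubule injury markers, 3 of 17 chaperone genes and 1 of 14 NRF2 genes passed it. The NRF2 call was lost when any one of 7 of the 12 arrays was left out. The list medians in the steps to 600 and to 900 were 0.04 and 0.48 for the NF-kB list, -0.20 and 0.38 for the interferon list and -0.06 and 0.46 for the ATF4 list. The cultures differed before the steps. The mean level of the NF-kB list was 6.23 in the 300 culture and 5.20 in the 600 culture, and 6.24 and 5.83 after the steps. The interferon list went from 4.61 and 5.67 to 4.38 and 6.11, and the ATF4 list from 5.07 and 4.83 to 5.03 and 5.34. The part of these starting levels in the differences was not tested. The matrix list, which holds targets of TGF-beta and YAP, had medians of -0.11 and -0.71, and 10 of its 15 genes differed. Thbs1, Ccn2 and Fn1 had differences of 0.00 ± 0.04, -0.07 ± 0.06 and 0.13 ± 0.07 in the step to 600 and of -0.92, -1.57 and -1.18 in the step to 900. The osmolyte list differed in 2 of 8 genes: Akr1b1 rose more in the step to 600 (1.02 ± 0.09) and Slc5a3 more in the step to 900 (-0.34 ± 0.08, adjusted p = 0.0219). The call of Slc5a3 was lost without array 1 of the 300 culture, 2 or 3 of the 600 culture, 1 or 3 of the 600 challenge with drug or 2 of the 900 challenge with drug (adjusted p of 0.0506 to 0.0596). The mean level of the macrophage and leukocyte list went from 4.07 to 4.14 on the arrays of the 600 culture to 3.19 to 3.23 after the step to 900, and its part in these differences was not tested.

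**Figure D4:**
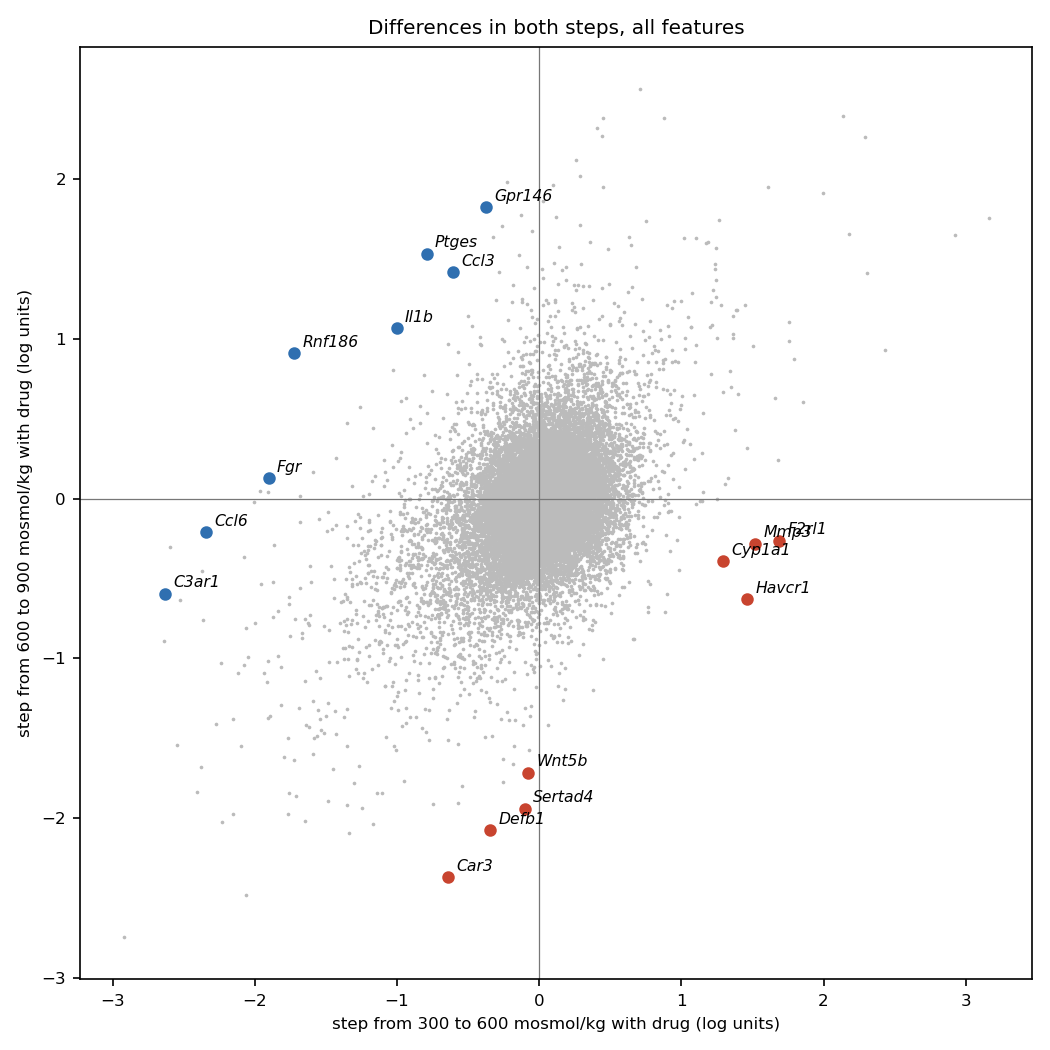
Difference in the step to 600 mosmol/kg with drug (x axis) against the difference in the step to 900 mosmol/kg with drug (y axis), in log units, for all 28328 features (grey) with the genes named for the difference between the steps in colour. The steps share no arrays. Il1b, Ccl3, Ptges and Rnf186 lie at the upper left and Havcr1 at the lower right.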

How the data were processed

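RNA of cultured rat cells was measured on 18 whole-transcript arrays, 3 in each of 6 groups, and the deposited table holds 1 value per feature and array. The scale is not named in the sources used here: from their range the deposited values are logarithms of unknown base, and the authors' background correction and normalization are not given, so levels of different features are not comparable in amount. Of the features, 15295 have 1 gene symbol in the platform annotation, 322 have several and 12711 are unnamed here.

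Group means of all 18 arrays were fitted with limma 3.58.1 (R 4.3.3; lmFit, contrasts, eBayes), with Benjamini-Hochberg adjustment over all 28328 features and a threshold of 0.05. The code was tested on simulated data. The brightest feature stood for a gene in 38 gene lists. Named genes were the 15 largest rises and 15 falls with groups that do not overlap, the 8 largest in each direction for the drug and for the steps, and list members. Genes and lists were chosen with earlier results of these data known. Replicate numbers did not pair the arrays: deviations of same-numbered arrays correlated at -0.015 to 0.031 between the 300 culture and the challenge with drug, 0.022 to 0.073 between the challenges, and -0.129 to 0.073 over all groups compared. Alternatives were scaling, filters, variance models, the replicate block, threshold and left-out arrays.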

Additional observations from a re-analysis of the deposited data

Results flagged for a closer look

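The effect of an osmotic step in the presence of cyclosporin A differed between the step to 600 and the step to 900 mosmol/kg in limma's test of the difference for 21 genes named in the report. Values are the difference in the step to 600 minus that in the step to 900, in log units. The steps start from different cultures, so these values do not compare the levels reached. The value was above 0 for Havcr1 (2.09), F2rl1 (1.95), Sertad4 (1.84), Mmp3 (1.80), Defb1 (1.73), Car3 (1.73), Cyp1a1 (1.68), Wnt5b (1.64), Ccn2 (1.5), Fn1 (1.31), Akr1b1 (1.02) and Thbs1 (0.91). It was below 0 for Rnf186 (-2.63), Ptges (-2.33), Gpr146 (-2.20), Ccl6 (-2.13), Il1b (-2.07), C3ar1 (-2.04), Fgr (-2.03), Ccl3 (-2.02) and Slc5a3 (-0.34). No test for outlying arrays was run on these groups of 3, but each of the 12 arrays was left out in turn. Of the 21 calls, 20 were kept each time, and that of Slc5a3 was lost without any one of 6 arrays.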

How the results depend on the processing

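No named call changed direction under any alternative run. Against the 300 culture, 3982 features were called, 2479 (914 of them higher) when only the 6 arrays compared were fitted and 2360 (868 higher) at a threshold of 0.01. The drug comparison was the least stable. Its 116 calls (65 higher, 51 lower) became 0 (0 higher, 0 lower) with only its 6 arrays, 268 (156 and 112) with a trend and robust prior and 178 (99 and 79) without dim features. Leaving out 1 array gave 39 to 67 calls, 22 to 36 higher and 17 to 31 lower. Of named calls, 132 of 151 against the 300 culture, 15 of 34 for the drug and 20 of 21 for the steps were kept without each array in turn. The fit with the replicate number as a block gave 3833 calls against the 300 culture, 91 for the drug and 2033 for the steps. In no pair of groups compared did the numbers pair the arrays (correlations of deviations of -0.129 to 0.073). Signals near or below the lower quartile limit what dim genes can show, and the causes of these shifts were not tested.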
